A study of Homo sapiens with 10 samples.

Results

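The genes described here are 10 regulators of epithelial identity, taken by symbol from the transcript names in all 10 libraries: TP63, TRIM29, GRHL1, GRHL2, GRHL3, OVOL1, ELF3, EHF, ESRP1 and ESRP2. They are 10 of the 60168 genes in the tables. mRNA was sequenced from MCF10A, a non-tumorigenic human mammary epithelial cell line, transduced with 1 of 3 vectors. MCF10A-control cells carried the empty vector, MCF10A-TRAM2 cells carried TRAM2, and MCF10A-YAP5SA cells carried activated YAP, which the labels call YAP and the study's methods YAP5SA. YAP5SA is a form of the transcriptional co-activator YAP that escapes inhibitory phosphorylation, and TRAM2 is a protein of the endoplasmic reticulum translocon. All groups went through transduction, antibiotic selection and harvest before full confluence. The labels give 4, 4 and 2 libraries, whereas the design text gives 3 biological replicates, and no source used here says which libraries came from separate cultures, so p-values measure only the spread between these samples.

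The libraries held 8489854 to 16314438 estimated counts. Over 2592 genes, control A and C differed by no more than sampling noise (chi-square per degree of freedom 0.994, p = 0.582), and so did control B and D (1.03, p = 0.13), against 1.14 to 1.19 for the other control pairs. Over a wider gene set, in which counts had to be whole in that pair alone, B and D reached 1.05 (p = 0.0208 by chi-square). A with C and B with D were each summed and counted as 1 sample, which left 2 control, 4 MCF10A-TRAM2 and 2 MCF10A-YAP5SA samples. A number in the deposited data's names, read as the sequencing run, puts the A and B libraries, with all of MCF10A-YAP5SA, together in one run (the first) and the C and D libraries in another (the second). TRAM2 itself stood at 28.4 and 28.9 CPM (counts scaled to the normalized library size) in control and at 390, 611, 250 and 460 CPM in MCF10A-TRAM2 A to D, although its log2 fold change of 3.90 did not pass (adjusted p = 0.0725 from edgeR). YAP1 stood at 187 CPM in both control samples and at 337 and 342 CPM in MCF10A-YAP5SA. TRAM2 was also higher in MCF10A-YAP5SA, at 242 and 247 CPM. Basal mammary markers summed to 4762 to 4805 CPM in control, 4399 to 4937 in MCF10A-TRAM2 and 4085 to 4158 in MCF10A-YAP5SA, and luminal markers to 1731 to 1799, 1707 to 1972 and 2970 to 3042. Within the luminal list, KRT8 (log2 fold change 0.96), KRT18 (0.60) and GATA3 (2.01) rose in MCF10A-YAP5SA against control, KRT19 (-4.28), FOXA1 (-2.95) and ESR1 (-1.01) fell, the median was -0.24, and PGR was at 0 in every sample. In the basal list, CDH3 (-2.305) and KRT5 (-0.94) fell, KRT17 (0.73) and EGFR (0.66) rose, 4 were not called and the median was -0.19. The 8 fibroblast markers summed to at most 97.9 CPM in any sample. Most of that sum was FAP, at 70.8 CPM on average in control and 93.9 in MCF10A-YAP5SA. The 7 leukocyte markers summed to between 48.4 and 58.9 CPM. Most of the leukocyte sum was CD68, a lysosomal protein gene (38.3 CPM on average in control and 52.1 in MCF10A-YAP5SA), while CSF1R was at 10.3 and 0.681 CPM and the T-cell gene CD3E at 0 throughout. The marker genes named here were named after their values were seen, and their part in the results was not tested. Fewer cells of a type and less RNA per cell cannot be told apart in such bulk samples.

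As background, epithelial cells keep their state through a small set of transcription factors that switch on junction and surface genes and hold down the factors of epithelial-mesenchymal transition (EMT). p63, encoded by TP63, is the master regulator of the basal layer of stratified and glandular epithelia. The grainyhead factors GRHL1 to GRHL3 bind the control regions of junction genes, the zinc finger protein OVOL1 represses ZEB1 and other mesenchymal drivers, and ELF3 and EHF are epithelium-specific ETS factors. ESRP1 and ESRP2 act after transcription and keep the epithelial splice forms of genes such as FGFR2 and CD44. TRIM29 is a tripartite motif protein of basal and squamous epithelium rather than a transcription or splicing factor. In GRCh37 coordinates of the GENCODE annotation, TP63 lies at chr3:189349178-189615065, TRIM29 at chr11:119981994-120056237, GRHL1 at chr2:10091822-10142405, GRHL2 at chr8:102504667-102681954 and GRHL3 at chr1:24526048-24690972. OVOL1 lies at chr11:65554534-65564685, ELF3 at chr1:201977073-201986311, EHF at chr11:34642640-34684835, ESRP1 at chr8:95653302-95719694 and ESRP2 at chr16:68262936-68272005. TRIM29 and ESRP2 are on the minus strand and the others on the plus strand.

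All 10 genes were lower in MCF10A-YAP5SA than in control, and none was called in MCF10A-TRAM2 against control. The largest falls were those of the ETS factors EHF and ELF3 and of TP63, and the smallest were those of ESRP2 and GRHL2, with ratios to control of 0.498 and 0.644. Calls required both an adjusted p under 0.05 from edgeR's quasi-likelihood test and a log2 fold change beyond 0.5 in either direction. All 10 genes passed the filter on low counts and were among the 15768 genes tested. Of all genes tested, 14.1% were called lower in MCF10A-YAP5SA than in control and 15.3% higher. The median log2 fold change of the 10 genes was -2.76, against -0.01 over all genes tested. In the plot of levels by sample the 2 MCF10A-YAP5SA samples lie below every control and MCF10A-TRAM2 sample for each of the 10 genes, as they do for 28.4% of all genes tested.

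CPM compares samples but not genes, since long transcripts collect more reads. TPM, the abundance scaled by transcript length, was recalculated here from the summed estimated counts and the effective lengths that Salmon gave for control A. Per length, with control 1 before control 2, TRIM29 was the most abundant of the 10 in control, at 89.2 and 98.6 TPM. GRHL2 followed at 67.8 and 74.2 TPM and ESRP1 at 46.7 and 44.4 TPM. ELF3 stood at 29.3 and 25.8 TPM, ESRP2 at 19.0 and 23.6 TPM and EHF at 14.96 and 13.5 TPM. These neighbours in the order did not overlap between the control samples. GRHL1 was near 3 TPM (3.14 ± 0.595, SD, n = 2), and TP63, OVOL1 and GRHL3 were all under 1 TPM, with TP63 (0.671 and 0.553) and OVOL1 (0.676 and 0.424) overlapping. In MCF10A-YAP5SA A and B the order by TPM began with GRHL2 at 48.7 and 24.7 TPM, and ESRP2 (13.9 and 9.61 TPM) lay above ESRP1 (9.19 and 6.83 TPM), the reverse of their order in control. TRIM29, first in control, stood at 9.71 and 3.23 TPM. The 2 MCF10A-YAP5SA samples lay closer together in CPM, which takes no account of transcript length (45.4 and 44.6 CPM for GRHL2, 11.9 and 13.01 CPM for TRIM29). A read on a short transcript weighs more in TPM than a read on a long transcript. GRHL2-205, of 236 bases, took 2.3% and 2.7% of GRHL2 reads in control 1 and 2. It took 3.1% and 1.1% in MCF10A-YAP5SA A and B, where GRHL2-206, of 5232 bases, took 77.2% and 81.7%. The place of GRHL2 in the order by TPM was not tested without its short transcripts. In TPM, GRHL2 ranged from 36.3 to 54.9 and ESRP2 from 12.4 to 23.5 in MCF10A-TRAM2. Both so overlapped MCF10A-YAP5SA, which they did not in CPM. GRHL2 was lowest in MCF10A-TRAM2 A, where GRHL2-205 took 0.9% of its reads. ESRP2 was at 23.5 TPM in MCF10A-TRAM2 A and 12.4 TPM in B. There ESRP2-209, a retained-intron transcript of 398 bases, took 10.8% and 3.7% of ESRP2 reads. The part of such short transcripts in the overlap was not tested.

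TP63 was measured by few reads. It stood at 3.11 and 2.48 CPM in control, at 2.68, 2.76, 3.51 and 2.90 CPM in MCF10A-TRAM2 A to D and at 0.0841 and 0.155 CPM in MCF10A-YAP5SA. Behind these values were 68 and 46 counts in control, 36 to 58 in the MCF10A-TRAM2 samples, and 1 and 2 in MCF10A-YAP5SA. The ratio of MCF10A-YAP5SA to control counts was 0.0429 (95% counting interval 0.00871 to 0.129). The fitted log2 fold change was -4.45 (standard error 0.46, adjusted p = 1.55e-06 from edgeR). TRIM29 had ample reads, at 126 and 134 CPM in control, 109 to 128 CPM in MCF10A-TRAM2 and 11.9 and 13.01 CPM in MCF10A-YAP5SA. Its log2 fold change was -3.38 (standard error 0.10, adjusted p = 2.4e-12 from edgeR), a 10.4-fold difference.

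The 3 grainyhead genes fell by unequal amounts, and GRHL3 and ELF3 each overlap an antisense gene in the annotation, while use of strand in the quantification is not stated. GRHL2, the most abundant of them, stood at 70.3 and 69.3 CPM in control, at 59.8, 67.1, 65.9 and 62.9 CPM in MCF10A-TRAM2 and at 45.4 and 44.6 CPM in MCF10A-YAP5SA. Its log2 fold change of -0.63 (95% interval -0.78 to -0.49, adjusted p = 2.38e-06 from edgeR) was the smallest of the 10. GRHL1 stood at 7.69 and 8.94 CPM in control, at 7.97 to 9.28 CPM in MCF10A-TRAM2 and at 2.02 and 2.17 CPM in MCF10A-YAP5SA. Its log2 fold change was -1.98 (95% interval -2.38 to -1.59), and this interval does not reach that of GRHL2. GRHL3 was close to the limit of detection, with 55 counts over both control samples and 4 over both MCF10A-YAP5SA samples. It stood at 1.24 and 1.51 CPM in control, at 1.56, 1.31, 0.848 and 0.884 CPM in MCF10A-TRAM2 and at 0.168 and 0.155 CPM in MCF10A-YAP5SA. The log2 fold change of GRHL3 was -3.02, with a wide 95% interval of -4.26 to -1.79. OVOL1, with 13 counts in MCF10A-YAP5SA, stood at 3.34 and 2.64 CPM in control, at 2.09, 2.42, 2.06 and 2.02 CPM in MCF10A-TRAM2 and at 0.42 and 0.619 CPM in MCF10A-YAP5SA. The fall of OVOL1 was 2.50 in size on the log2 scale (log2 fold change -2.50, 95% interval -3.23 to -1.77).

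The ETS factors ELF3 and EHF were both well expressed in control and near the bottom of the range in MCF10A-YAP5SA. ELF3 stood at 47.6 and 45.8 CPM in control, at 50.1, 46.1, 43.5 and 44.3 CPM in MCF10A-TRAM2 and at 1.93 and 1.94 CPM in MCF10A-YAP5SA. This was a 24.1-fold difference from control (log2 fold change -4.59, standard error 0.13, adjusted p = 2.4e-12 from edgeR). EHF stood at 42.2 and 38.5 CPM in control, at 42.1, 39.1, 42.3 and 42.6 CPM in MCF10A-TRAM2 and at 0.42 and 1.08 CPM in MCF10A-YAP5SA. EHF had 1637 counts over both control samples and 19 over both MCF10A-YAP5SA samples, and its ratio of counts was 0.0189 (95% counting interval 0.0114 to 0.0296). The fitted log2 fold change of EHF, -5.71 (95% interval -6.10 to -5.31), was the largest of the 10 in size.

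Both splicing regulators fell, ESRP1 by more than ESRP2. ESRP1 stood at 171 and 173 CPM in control, at 178, 166, 182 and 178 CPM in MCF10A-TRAM2 and at 30.1 and 33.8 CPM in MCF10A-YAP5SA. Its log2 fold change was -2.43 (95% interval -2.58 to -2.28, adjusted p = 1.94e-12 from edgeR). ESRP2 stood at 52.1 and 54.1 CPM in control, at 44.5, 38.3, 45.3 and 46.7 CPM in MCF10A-TRAM2 and at 27.4 and 25.5 CPM in MCF10A-YAP5SA. Its log2 fold change of -1.01 (95% interval -1.21 to -0.81, adjusted p = 4.72e-07) is separate from the interval of ESRP1, although with counts rescaled by transcript length ESRP2 stood at -0.83 and was not called (adjusted p = 0.063).

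**Figure D1:**
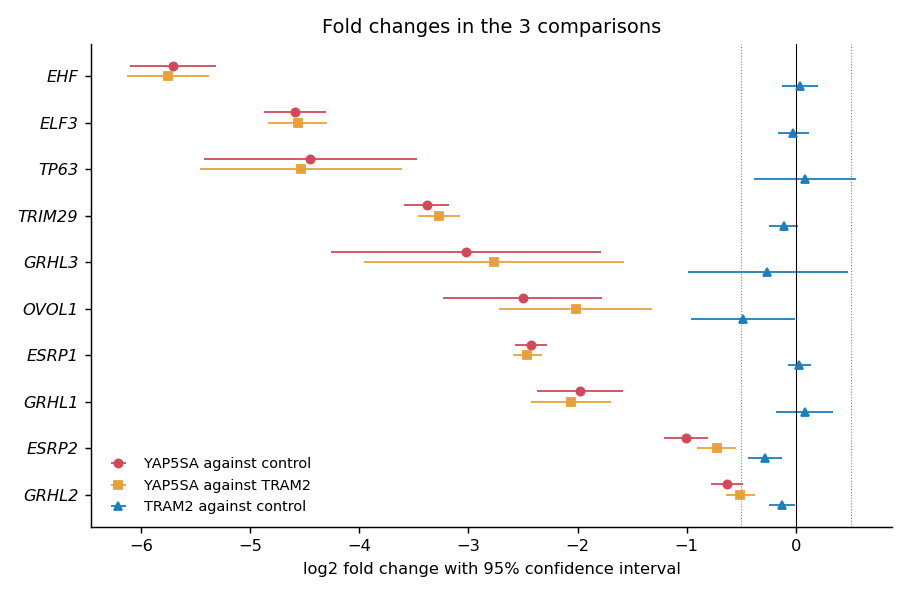
Log2 fold change of each gene with its 95% confidence interval in the 3 comparisons, ordered by MCF10A-YAP5SA against control (red circles). Dotted lines mark the fold threshold of 0.5. Both comparisons of MCF10A-YAP5SA lie left of the threshold for all 10 genes, with GRHL2 at -0.63 and -0.51, while the blue triangles for MCF10A-TRAM2 against control lie between -0.48 and 0.08.

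Promoter sequence in the RefSeq table used here (GRCh38.p14, 250 bases before the start) was present for 5 of the 10 genes, in 7 windows. Each was searched on both strands for the TEAD motif GGAATG, the E-box CAGGTG that ZEB and SNAI factors bind, and the grainyhead core AACCGG. The TEAD motif was in 0 of the 7 windows, where 11.9% of all 35116 windows in the table held it. The E-box was in 2 of 7, against 17.5% of all windows, and the grainyhead core in 1 of 7, against 6.0%. The windows with a match are shown, with the TP63 window at the upstream start for reference, all on the plus strand and with matches in capitals. The first GRHL3 window, at chr1:24319107-24319356, precedes a start at or near that of GRHL3-204 and GRHL3-205, which took 67.3% of GRHL3 reads over the 8 samples, and has an E-box whose first base lies 21 bases before the start. The second, at chr1:24322790-24323039, precedes GRHL3-201 and GRHL3-207, with 8.0% of the reads, and has a grainyhead core that begins 70 bases before the start. The ELF3 stretch, at chr1:202010455-202010484, is the 30 bases around an E-box that begins 120 bases before the start of ELF3-202 and ELF3-203. The TP63 window, at chr3:189631139-189631388, precedes TP63-201 and held none of the motifs. Neither EHF window was tied to a GENCODE transcript start, and no window lay at the internal TP63 start. A match in these letters is a description and does not show binding. Regions further from the start were not searched, and a missing match does not show a lack of binding.
GRHL3, first start: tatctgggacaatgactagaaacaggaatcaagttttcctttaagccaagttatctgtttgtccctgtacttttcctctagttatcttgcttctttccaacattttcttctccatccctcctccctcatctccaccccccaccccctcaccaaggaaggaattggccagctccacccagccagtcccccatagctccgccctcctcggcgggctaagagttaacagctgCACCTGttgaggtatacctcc
GRHL3, second start: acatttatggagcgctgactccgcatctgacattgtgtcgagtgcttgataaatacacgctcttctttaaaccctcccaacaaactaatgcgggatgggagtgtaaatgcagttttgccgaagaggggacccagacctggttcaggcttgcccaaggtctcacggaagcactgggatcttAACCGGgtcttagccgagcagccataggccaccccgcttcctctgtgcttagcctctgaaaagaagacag
ELF3: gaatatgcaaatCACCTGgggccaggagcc
TP63, upstream start: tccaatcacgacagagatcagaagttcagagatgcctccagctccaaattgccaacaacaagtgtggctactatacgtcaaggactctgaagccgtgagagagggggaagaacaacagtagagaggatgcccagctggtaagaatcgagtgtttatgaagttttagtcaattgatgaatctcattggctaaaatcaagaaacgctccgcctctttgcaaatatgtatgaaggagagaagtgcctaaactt

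The question of which TP63 transcripts were present bears on p63 function, since transcripts from the upstream start encode TAp63 proteins, with an N-terminal transactivation domain, and transcripts from the internal start encode deltaNp63, the form known from basal epithelial cells. The tables hold 14 TP63 transcripts. Of these 6 begin between 189349178 and 189349305 on chromosome 3 of GRCh37 and 8 at the internal start, between 189507448 and 189507590. The exons of the upstream class and of the internal class are largely shared, and 8.8% of the exonic bases of the upstream class and 14.2% of those of the internal class belong to that class alone.

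The share of TP63 reads on transcripts with the internal start did not settle to a stable value within a group. It was 49.6% and 67.4% in control 1 and 2 (58.5% ± 12.6, SD, n = 2), and 4.2%, 26.8%, 74.4% and 46.3% in MCF10A-TRAM2 A to D (37.9% ± 29.8, SD, n = 4). The 3 reads of MCF10A-YAP5SA were all assigned to internal-start transcripts, and for MCF10A-YAP5SA B, with 2 reads, the 95% Wilson interval runs from 34.2% to 100%. The libraries summed into 1 control sample also split unlike each other. Control A put 63.4% of 32 reads on the internal start and control C 37.2% of 36, while control B put 100% of 31 reads there and control D 0% of 15. The Wilson intervals of B (89.0% to 100%) and D (0% to 20.4%) do not meet, and they cover counting error only, not the uncertainty of the assignment between shared exons. By TPM the shares were 70.6% ± 10.0 in control and 57.1% ± 36.2 in MCF10A-TRAM2.

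The single transcripts varied in the same way. TP63-201, the longest upstream transcript, took 50.3% of the reads in control 1 and 9.1% in control 2, where TP63-203, the longest internal transcript, took 45.3%. TP63-203 received 0 reads in control A, C and D and in MCF10A-TRAM2 A, B and D, and 20.8 and 21.2 reads in control B and MCF10A-TRAM2 C. A test of transcript usage over 10923 genes (edgeR's diffSpliceDGE with Simes p-values) compared 4 of the 14 TP63 transcripts and gave an adjusted p = 1 for TP63 in every comparison. The upstream class as a whole was not tested against the internal class.

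Transcript usage was called in 1.58% of genes in MCF10A-YAP5SA against control, 0.97% in MCF10A-TRAM2 against control and 2.51% in MCF10A-YAP5SA against MCF10A-TRAM2. GRHL3 was not tested, as too few of its transcripts had enough reads. Of the other 9 genes, ELF3 was called in MCF10A-YAP5SA against MCF10A-TRAM2 (adjusted p = 0.0446 from diffSpliceDGE) but not against control (adjusted p = 0.108), and no other gene was called in any comparison. The call rested on the protein-coding transcript ELF3-202, which took 19.3% and 31.1% of ELF3 reads in control 1 and 2 and 24.6%, 22.4%, 28.4% and 31.5% in MCF10A-TRAM2 A to D. In MCF10A-YAP5SA it received 0 of 48 reads, which by counting alone allows a share of up to 6.25% (floor of 3 counts). That limit leaves out the uncertainty of the assignment of reads between transcripts. ELF3-203, a longer coding transcript, stood at 24.1% ± 4.8 (SD, n = 2) in control and at 48.2% and 31.0% in MCF10A-YAP5SA, where ELF3 had 23 and 25 reads. The transcript with most ELF3 reads over the 8 samples was the non-coding ELF3-206. It took 28.9% and 27.6% in control 1 and 2 and 33.4% and 33.1% in MCF10A-YAP5SA A and B, so the ELF3 counts include non-coding transcripts. The ELF3 call did not hold without MCF10A-TRAM2 B (adjusted p = 0.0501), C (0.0616) or D (0.0713), without MCF10A-YAP5SA A (0.423) or B (0.421), or over the 10 libraries as deposited (0.0725).

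**Figure D2:**
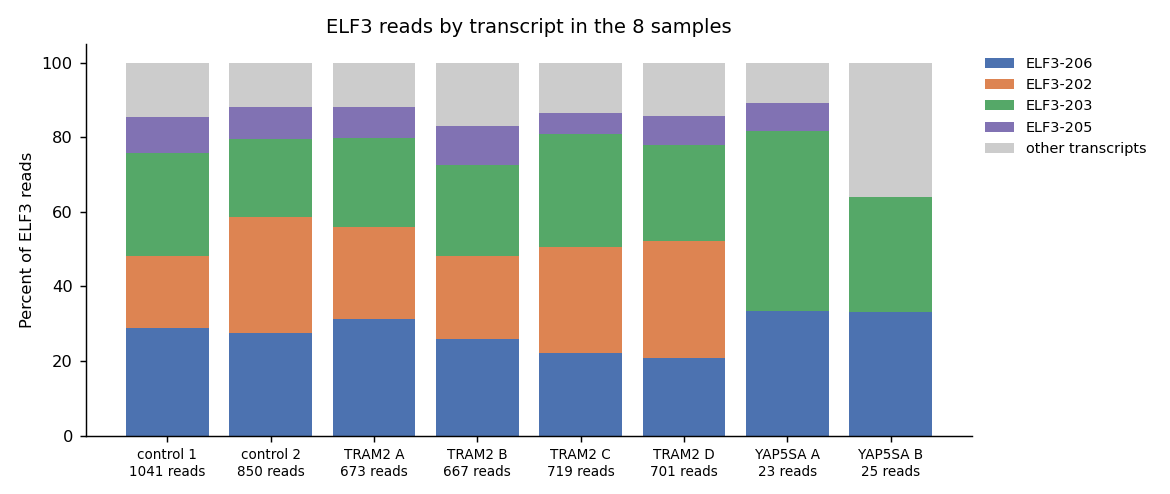
Percent of ELF3 reads on its 4 transcripts with most reads and on all others in each of the 8 samples, with the number of ELF3 reads below each bar. ELF3-202 (orange) takes 19.3% to 31.5% in control and MCF10A-TRAM2 and is assigned none of the 23 and 25 reads of MCF10A-YAP5SA A and B.

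GRHL1, GRHL2, ESRP2 and TRIM29 were each led by 1 transcript in all 8 samples. GRHL2-206 took 74.6% to 81.7% of GRHL2 reads in all 8 samples, and ESRP2-210 took 64.9% to 86.6% of ESRP2 reads. TRIM29-201 took 60.5% to 74.7% of TRIM29 reads in all 8 samples. EHF-201 took 63.6% to 74.0% of EHF reads in control and MCF10A-TRAM2, but 0% of 5 reads in MCF10A-YAP5SA A and 85.7% of 14 in B. The split between ESRP1-201 (3756 bases) and ESRP1-203 (3768 bases) varied even within a group. ESRP1-201 received 0% of ESRP1 reads in MCF10A-TRAM2 A and B, 32.5% in C and 11.9% in D, while ESRP1-203 received 26.0% in A and 0% in C.

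No difference between MCF10A-TRAM2 and control passed the test for the 10 genes. By edgeR 0 of the 10 were called, and also 0 by DESeq2, where 0.0571% of all genes tested were called by edgeR. At an unadjusted p under 0.05 there were 3, all lower and without overlap between the groups' samples: ESRP2, GRHL2 and OVOL1. Of all genes tested, 12.6% had an unadjusted p under 0.05, and 6.11% had one and were lower without overlap. ESRP2 had a log2 fold change of -0.28 (95% interval -0.44 to -0.13, adjusted p = 0.132 from edgeR), GRHL2 of -0.13 (95% interval -0.24 to -0.01) and OVOL1 of -0.48 (95% interval -0.96 to -0.01). Within the first and the second run, ESRP2 stood at -0.38 and -0.18, GRHL2 at -0.11 and -0.14 and OVOL1 at -0.09 and -0.86. The control libraries of the 2 runs are those summed above, so these values may not be independent. OVOL1 had few counts, 32 and 21 in control A and B and 41 and 28 in C and D, and its difference between the runs was not tested. The adjusted p of ESRP2 by edgeR was 0.0179 over the 10 libraries as deposited, where the control libraries summed above counted as separate samples. Without a filter on low counts the adjusted p by edgeR was 0.00147, and ESRP2 never passed the fold threshold. In TPM, GRHL2 lay further apart, at 67.8 and 74.2 in control and 36.3 to 54.9 in MCF10A-TRAM2, while ESRP2 and OVOL1 overlapped between these groups. GRHL2-205, of 236 bases, took 2.3% and 2.7% of GRHL2 reads in control and 0.9% to 1.8% in MCF10A-TRAM2, and its part in the TPM difference was not tested. For GRHL3, the 2 MCF10A-TRAM2 samples of the first run lay at 1.56 and 1.31 CPM and those of the second at 0.848 and 0.884 CPM, so that its log2 fold change was 0.22 in the first run and -0.80 in the second. Per length the direction of GRHL3 turned: it stood at 0.234 and 0.279 TPM in control and at 0.739, 1.12, 0.806 and 0.298 TPM in MCF10A-TRAM2, without overlap, and its log2 fold change was 1.502 with counts rescaled by transcript length (adjusted p = 0.711 from edgeR) against -0.26 without. The short non-coding transcript GRHL3-209, of 561 bases, received 4.9, 5.8, 2.3 and 0 reads in MCF10A-TRAM2 A to D and 0 in both control samples. The GRHL3 difference per length thus rests on few reads, and the part of GRHL3-209 in it was not tested.

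For the other 6 genes the intervals of the MCF10A-TRAM2 difference were as follows. ELF3 (-0.17 to 0.12), ESRP1 (-0.08 to 0.14), EHF (-0.12 to 0.21) and TRIM29 (-0.24 to 0.02) all lay between -0.24 and 0.21 on the log2 scale. The intervals of GRHL1 (-0.18 to 0.34) and TP63 (-0.38 to 0.55) were wider, and that of TP63 passed the fold threshold on the higher side.

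Between MCF10A-YAP5SA and MCF10A-TRAM2 all 10 genes were called lower in MCF10A-YAP5SA, where 14.6% of all genes tested were. This comparison shares its MCF10A-YAP5SA samples with the first. EHF had a log2 fold change of -5.75, ELF3 of -4.56, TP63 of -4.53, TRIM29 of -3.27, GRHL3 of -2.76 and ESRP1 of -2.46. GRHL1 stood at -2.06, OVOL1 at -2.02 and ESRP2 at -0.73. GRHL2, at -0.51 (95% interval -0.64 to -0.38, adjusted p = 6.97e-06 from edgeR), lay at the fold threshold and was not called without MCF10A-TRAM2 B (-0.486), without MCF10A-TRAM2 C (-0.495) or without MCF10A-YAP5SA B (-0.491).

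Genes related to these regulators were read from lists written from general knowledge, by counts and median only. Of 16 tested grainyhead target genes, 14 fell in MCF10A-YAP5SA against control, 1 rose and 1 was not called, with a median log2 fold change of -2.07. Those with the smallest adjusted p were the membrane trafficking gene MAL2 at -3.31, MACC1 at -5.30, the tight junction claudin CLDN7 at -5.15 and the membrane serine protease ST14 at -3.19. The gene that rose, the adhesion molecule gene NECTIN4 at 1.15, and the one not called, the protease gene PRSS8 at -0.47, were named after their values were seen. Of 20 tested p63 target genes, 8 fell, 4 rose and 8 were not called, with a median of -0.33. FERMT1, an integrin activator, stood at -1.90 and the calcium-binding protein gene S100A2 at -2.34. The growth factor gene NRG1 rose by 3.47 and the hemidesmosome linker gene DST by 1.23 on the log2 scale, as did ITGA3 at 0.58 and FGFR2 at 1.18, named after their values were seen.

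Of 9 listed relatives of the 10 genes in the same families, 5 had enough reads for a test, and of these 2 were called, both lower: TFCP2L1, a grainyhead-type factor, at -2.85, and OVOL2, the paralog of OVOL1, at -2.03. Of 14 other tested epithelial and keratinocyte transcription factors, 9 fell, 2 rose and 3 were not called, with a median of -0.78. KLF4 stood at -2.01 and SOX15 at -3.55, whereas the luminal factor GATA3 rose by 2.01, as did PRDM1 by 1.01, named after its value was seen.

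Of 8 tested transcription factors that drive EMT, 4 rose, 2 fell and 2 were not called, with a median of 0.55. ZEB1, a repressor of epithelial genes, rose by 3.43, ZEB2 by 1.70, SNAI2 by 0.84 and FOXC2 by 0.89 on the log2 scale. SNAI1 at -1.82 and TCF4 at -0.90, named after their values were seen, were not called without control 1 or without MCF10A-YAP5SA B. Of 20 tested splicing regulators outside the ESRP pair, 15 were not called, 3 fell and 2 rose, and the median was 0.02. RBM47, an RNA-binding protein of epithelial cells, stood at -4.23, the muscleblind protein gene MBNL3 at -2.23 and PTBP3 at -0.50, at the fold threshold, while RBM24 rose by 2.15 and KHDRBS3, named after its value was seen, by 0.75. The abundant regulators PTBP1 (-0.04) and HNRNPM (-0.02), also named after their values were seen, were not called. In MCF10A-TRAM2 against control, edgeR and DESeq2 each called 0 genes of every one of these 6 lists. At an unadjusted p under 0.05 by edgeR there were 1 of 5 tested relatives, 3 of 14 other epithelial factors and 2 of 20 p63 targets. There were also 5 of 16 grainyhead targets, 4 of 8 EMT factors and 3 of 20 splicing regulators, beside the 12.6% of all genes tested. The 4 EMT factors were all higher and the 5 grainyhead targets all lower. Of the p63 targets DST was higher and S100A2 lower, and those of the remaining lists were all lower. The median log2 fold change was 0.271 for the EMT factors and -0.115 for the grainyhead targets. It was between -0.052 and -0.009 for the other lists and -8e-04 over all genes tested.

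The genes whose profile over the 8 samples was nearest to a given regulator, by the Euclidean distance between centred log2 CPM values among 11836 protein-coding genes, were as follows. For TP63 they were COL7A1 (distance 0.363), which encodes the anchoring fibril collagen of the basement membrane, CSF1R (0.366) and TMC5 (0.371). For ELF3 they were SERPINA5 (0.362), BICDL2 (0.39) and HSD11B2 (0.414). ESRP1 lay nearest to SIPA1L2 (0.168), HOOK1 (0.194) and DDIT4 (0.249), and GRHL2 to COX19 (0.0911), FGFRL1 (0.0991) and COX17 (0.103). These distances describe likeness of level over 8 samples in which MCF10A-YAP5SA stands apart, and are given without a test. A prior count of 2 entered the log2 CPM values. It weighs on the distances where counts are few, as for TP63 with 1 and 2 counts in MCF10A-YAP5SA.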

How the data were processed

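Poly(A) RNA of 10 MCF10A libraries was sequenced. The authors removed adapters with cutadapt and quantified transcripts with Salmon, and the sources used here give neither versions nor the index or build. According to the labels the kit was TruSeq RNA, and the study's methods call it stranded. For each library and transcript the authors deposited an estimated count, often fractional, and a TPM value, which is scaled by effective length.

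The deposited estimated counts were summed per gene over 60168 genes and rounded. The TPM values given here were recalculated from the counts of the 8 samples and the effective lengths of control A. Control libraries that did not differ beyond sampling noise in a chi-square test (on genes averaging 50 counts or more whose values lay within 0.001 of whole numbers) were summed. After filterByExpr, which left 15768 genes, and TMM scaling, edgeR 4.0.16 was run in R 4.3.3 (robust glmQLFit and glmQLFTest, Benjamini-Hochberg adjustment over all genes tested) in 1 fit of 8 samples without covariates. Calls needed an adjusted p below 0.05 and a log2 fold change beyond 0.5 either way. Transcript usage was tested with diffSpliceDGE. Intervals are at 95%. DESeq2 1.42.0, other scalings, filters, sample sets and single omissions were alternatives. The steps were tested on simulated counts. Same-letter libraries of different groups did not deviate together (correlations -0.031 to 0.035), and the letters were not used as pairs in the main fit. Control libraries differed by little more than sampling noise, so these correlations cannot tell whether the letters pair cultures.

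The 10 genes, the lists and the tests were chosen with earlier results of these data known. All 10 genes were named; of each list, up to 4 called genes with the smallest adjusted p in MCF10A-YAP5SA against control, and for TP63, GRHL2, ELF3 and ESRP1 the 3 nearest protein-coding genes at a mean of at least 1 CPM. Sequences are from RefSeq, and 5 of the 10 genes had an entry. Promoter windows were tied to transcripts where the 30 bases after the start occurred at or within 100 bases of the 5′ end of a GENCODE transcript. Some genes that this rule would name are not reported here.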

Additional observations from a re-analysis of the deposited data

Results flagged for a closer look

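Among the 4 MCF10A-TRAM2 samples, 2 of the 10 genes had a sample set apart from the others by Dixon's test, which chance does in about 1 of 20 groups. For EHF the lowest sample, MCF10A-TRAM2 B at 39.1 CPM, lay apart from the others at 42.1 to 42.6 CPM (gap over range 0.85), and all 4 lay within or near the control values of 38.5 and 42.2 CPM. For OVOL1 the highest sample, again MCF10A-TRAM2 B, at 2.42 CPM, lay apart from the others at 2.02 to 2.09 CPM (gap over range 0.833), and the log2 fold change without it was -0.55, against -0.48 with it. Neither gene was called in MCF10A-TRAM2 against control with or without that sample.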

How the results depend on the processing

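All 10 genes were called lower in MCF10A-YAP5SA against control under every alternative but 2: 9 remained with counts rescaled from TPM by transcript length and 9 at an absolute log2 fold change over 1. Against MCF10A-TRAM2 the count was 8 under both of these, 9 to 10 with single samples left out, and 9 over the 10 libraries with the replicate letter as a block (GRHL2 at -0.49), which changed no other call of the 10 genes. Against control 0 of the 10 genes were called in MCF10A-TRAM2 under every alternative. Its small differences changed sign in places. In the first run alone TP63 stood at -0.081, GRHL3 at 0.219, ELF3 at 0.039 and ESRP1 at -0.005. With length-rescaled counts TP63 stood at -0.039, GRHL3 at 1.502 and EHF at -0.009. With single samples left out TP63 ranged from -0.062 to 0.266, GRHL1 from -0.025 to 0.192, ELF3 from -0.068 to 0.009 and EHF from -0.02 to 0.116; the cause was not tested. Of the EMT factors 3 were called with length-rescaled counts. At a log2 fold change over 1, 7 of the other epithelial factors, 7 of the p63 target genes, 3 of the EMT factors and 3 of the splicing regulators were called, as the stricter threshold implies. The list alternatives and those for ELF3 transcripts were chosen after seeing the data. The counts of TP63 and GRHL3, and TP63 transcript shares, are limited by depth.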
